A study of Bos taurus with 12 samples.

Results

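The let-7 family was listed under 10 of the 755 mature miRNA names counted in the bovine granulosa cell libraries. These were bta-let-7a-5p, bta-let-7a-3p, bta-let-7b, bta-let-7c, bta-let-7d, bta-let-7e, bta-let-7f, bta-let-7g, bta-let-7i and bta-miR-98. They were taken by name, as the family's members. The count tables pair a mature miRNA with each of its precursors, and the 10 names filled 14 of the 906 entries, so a name with several precursors was taken at the entry with the highest total. Small RNA had been sequenced from granulosa cells of Simmental heifers in 4 groups of 3 biological replicates, from subordinate follicles (SF) or dominant follicles (DF), with both classes taken on day 3 and on day 7 of the estrous cycle. SF and DF were told apart by diameter, with size limits that differed between the days. Different heifers were slaughtered on day 3 and on day 7, so no follicle was followed in time. SF and DF of a given day came from the ovaries of the same group of heifers, so their libraries may share animals. The granulosa cells were spun down from follicular fluid that had been pooled by follicle size, so a library can hold cells of several follicles. Dominant follicles of day 7 were too few in the study for each of their libraries to be such a pool, so the amount of pooling differed between the groups. The replicate numbers are not tied to an animal, and every p value below measures only the spread between these samples.

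Let-7 miRNAs are among the most conserved and most abundant miRNAs of differentiated animal cells. Their mature strands carry the same seed, the short stretch near the 5′ end that pairs with target mRNAs, and miR-98 belongs to the family by that seed. Known targets include cell cycle and growth genes such as the Ras genes and Hmga2, and the RNA-binding protein LIN28 blocks the processing of let-7 precursors in stem cells. In the ovary, granulosa cells surround the oocyte, divide while the follicle grows and make estradiol. Bta-let-7a-3p comes from the opposite arm of the let-7a hairpin, has another seed and is usually degraded, so family sums below hold the 9 other members.

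With 1 entry per mature name, the libraries held between 160418 and 405129 miRNA reads, the smallest being DF day 7 replicate 2. A count of 3 reads was between 0.000741% and 0.00187% of a library, which covers counting error only. Among miRNAs known from other cell types, the DF day 7 libraries stood apart in the leukocyte sum and the smooth muscle and stroma sum. They also stood apart in the gonadal bta-miR-202. The summed normalized count of 4 leukocyte miRNAs (bta-miR-142-3p, bta-miR-142-5p, bta-miR-150 and bta-miR-223) was 783 to 8636 there and 108 to 705 in the 9 other libraries. Nearly all of it was bta-miR-142-5p and bta-miR-150, since bta-miR-142-3p and bta-miR-223 reached at most 6.65 and 8.32 in any library. The sum of the smooth muscle and stroma miRNAs bta-miR-143 and bta-miR-145 was 6723 to 14191 against 2206 to 4909. Bta-miR-143 made up most of this sum, as bta-miR-486 did of the erythrocyte sum that follows. The sums overlapped for 3 erythrocyte miRNAs, at 808 to 2322 against 315 to 1642, and for 2 endothelial miRNAs, at 130 to 160.2 against 61.6 to 221. The gonadal bta-miR-202 was lower, at 364 to 976 against 2213 to 3673. Of these 12 marker miRNAs, 11 or 12 were tested in a comparison. The thresholds given below were passed by 7 for SF against DF at day 7 and by 8 for DF between the days. They were passed by 0 for SF against DF at day 3 and for SF between the days. Over all miRNAs tested, the shares that passed were 33.4%, 40.3%, 5.67% and 0.593%, in the same order. Bta-miR-142-3p and bta-miR-144 were at 0 reads in several libraries. The cell type itself could be checked by miRNAs alone, since mRNA was not measured. In a library of many cells, pooled or not, fewer cells of a type and less RNA per cell cannot be told apart. The DF day 7 values also rest on few follicles.

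Counted at 1 entry per mature name, the let-7 family took a large part of the granulosa miRNA reads. The 9 members with the shared seed made up 15.6% ± 0.764 (SF) and 16.3% ± 1.21 (DF) of the reads at day 3, and on day 7 they made up 13.3% ± 2.57 (SF) and 12.9% ± 0.393 (DF; SD, n = 3). The lowest share was that of SF day 7 replicate 2, 11.7% (95% Wilson interval 11.6% to 11.8%), and the highest that of DF day 3 replicate 3, 17.6% (17.5% to 17.8%). These intervals cover counting error only and not the spread between replicates. Within SF at day 7, replicate 1 held 16.3% and replicates 2 and 3 held 11.7% and 12%, so this group covered most of the whole range by itself. The summed normalized count of the 9 members, scaled by median-of-ratios size factors, ran from 32909 to 43877, a 1.33-fold range over the 12 libraries.

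By mean normalized count, the order of the family was bta-let-7f, then bta-let-7a-5p, bta-let-7i, bta-let-7g, bta-miR-98, bta-let-7b, bta-let-7c, bta-let-7e, bta-let-7d and last bta-let-7a-3p. A read covers a whole mature miRNA, so these counts do not grow with transcript length, although ligation efficiency may differ between sequences. Bta-let-7f ranked 6 of the 755 names, bta-let-7a-5p ranked 7 and bta-let-7i ranked 8. The leading 3 were not separated from one another. Bta-let-7f was above bta-let-7a-5p in 7 of 12 libraries, and bta-let-7a-5p was above bta-let-7i in 9 of 12. Bta-let-7i was above bta-let-7g in all 12 libraries. The middle of the order was loose, with bta-let-7g above bta-miR-98 in 9 libraries, bta-miR-98 above bta-let-7b in 10, bta-let-7b above bta-let-7c in 9 and bta-let-7c above bta-let-7e in 8. Bta-let-7d, with a mean of 412 normalized counts, was the lowest of the seed family in all 12 libraries.

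**Figure D1:**
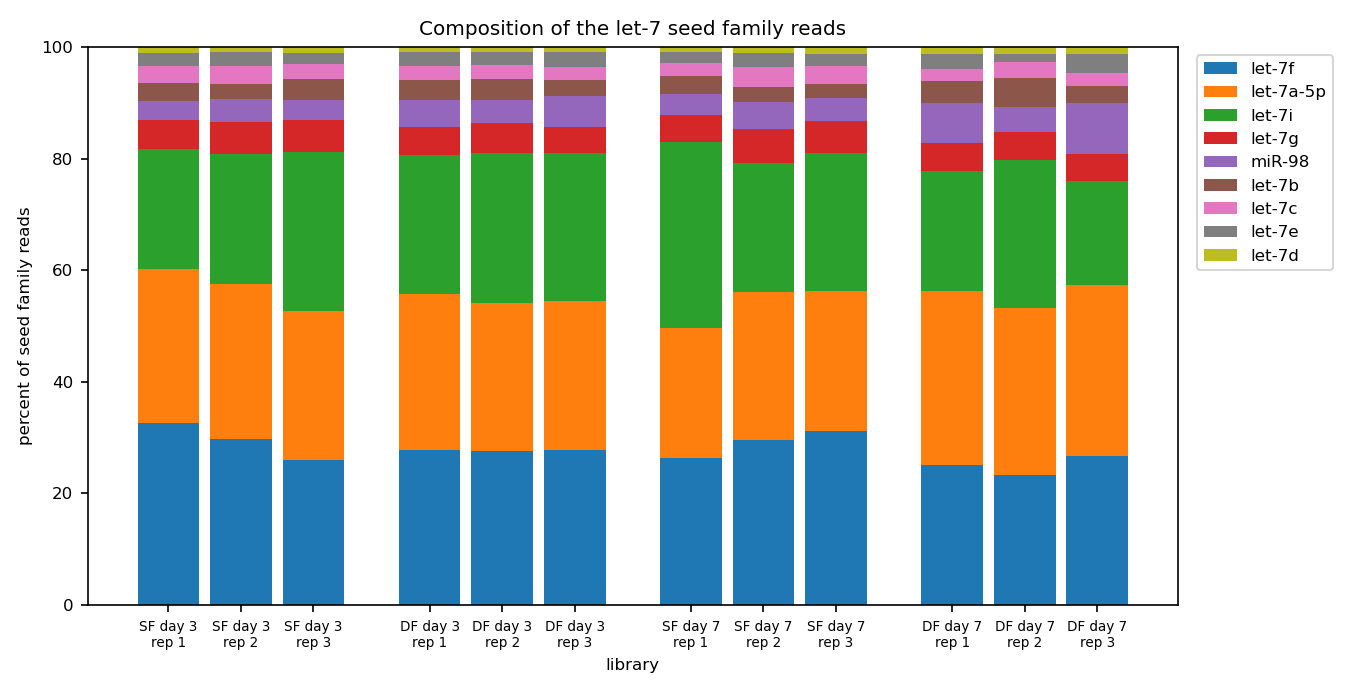
Share of each of the 9 seed family members in the family's reads, in percent, stacked in 1 bar per library (replicates 1 to 3 of each group from left to right). Bta-let-7a-5p, bta-let-7i and bta-let-7f together filled 76.0% to 83.0% of each bar, and bta-miR-98 reached its largest share, 9.16%, in DF day 7 replicate 3.

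Within the family, bta-let-7a-5p and bta-let-7d took larger shares in the DF day 7 libraries than in all others. Bta-let-7a-5p held 31.1%, 29.9% and 30.6% of the family reads in those 3 libraries and 23.4% to 27.96% in the 9 others, although its normalized counts in DF at day 7, 10246 to 11600, lay within the range of the other libraries. Bta-let-7d held 1.26%, 1.26% and 1.34% there and 0.890% to 1.20% elsewhere. Bta-let-7f held 25.1%, 23.3% and 26.7% there and 25.9% to 32.7% elsewhere, which overlapped in replicate 3. Bta-miR-98 held 7.25%, 4.50% and 9.16% in DF at day 7 and 3.48% to 5.59% elsewhere, and here replicate 2 lay inside the range of the other groups.

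The members varied little over the 12 libraries compared with other abundant miRNAs. Among 110 miRNAs with a mean of at least 100 normalized counts, a set chosen after the values had been seen, the SD of the log2 normalized count had a median of 0.57. The 9 seed family members had a median SD of 0.25, all 9 lay below the median of the 110, and 8 were among the lowest 25%. Bta-let-7a-5p had the third smallest SD of the 110, 0.12, and its highest library was 1.32-fold above its lowest. Bta-let-7d had an SD of 0.15 and bta-let-7g one of 0.16. The most variable member was bta-miR-98, with an SD of 0.36, rank 36 of 110 and a 2.35-fold range. With reads scaled to the library total in place of size factors, 9 members again lay below the median and 6 among the lowest 25%. Without DF day 7 replicate 2 these counts were 9 and 7, and without SF day 7 replicate 1 they were 9 and 8.

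**Figure D2:**
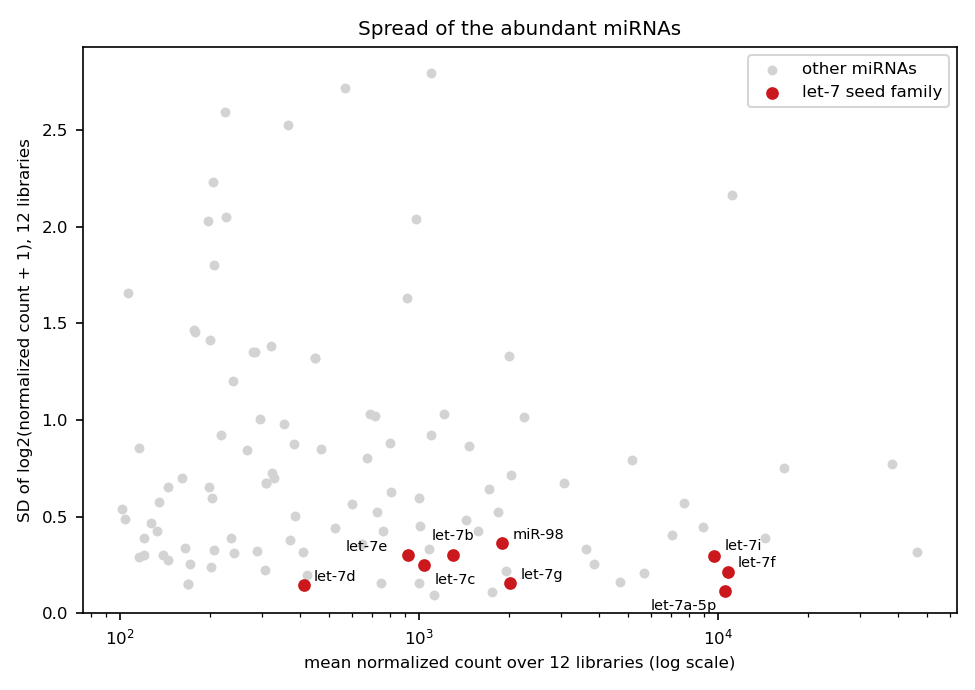
Each point is a miRNA with a mean of at least 100 normalized counts (110 in all). The horizontal axis gives the mean normalized count on a log scale and the vertical axis the SD of log2(normalized count + 1) over 12 libraries. The 9 seed family members, in red, lie below the median SD of 0.57, from 0.12 for bta-let-7a-5p to 0.36 for bta-miR-98.

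The counts of each member were next compared between SF and DF on each day, and between the days in each follicle class, with edgeR's quasi-likelihood F test and Benjamini-Hochberg adjustment over all miRNAs tested. All 10 members passed the detection rule of at least 1 read in at least 2 of 3 replicates in every comparison. The thresholds for differential expression were a log2 fold change of 1 or more in either direction, a p value up to 0.05 and a false discovery rate (FDR) up to 10%. At these thresholds 0 of 10 let-7 members were differentially expressed in all 4 comparisons, and 0 of 10 in the test of the follicle by day interaction. DESeq2 also gave 0 in each. Of all miRNAs tested, it called 11 of 335 for SF against DF at day 3 and 104 of 350 at day 7. It called 123 of 360 in DF and 5 of 337 in SF between the days, and 97 of 378 for the interaction. At an unadjusted p of at most 0.05, edgeR gave 3 members for SF against DF at day 3, 1 for DF between the days and 0 in the others, and DESeq2 gave 2, 1 and 0. The share of all miRNAs at that p was not counted, so these counts are not set against the rest. The members with such a p had changes below the 2-fold limit, and the 95% intervals show how far each value was settled.

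**Figure D3:**
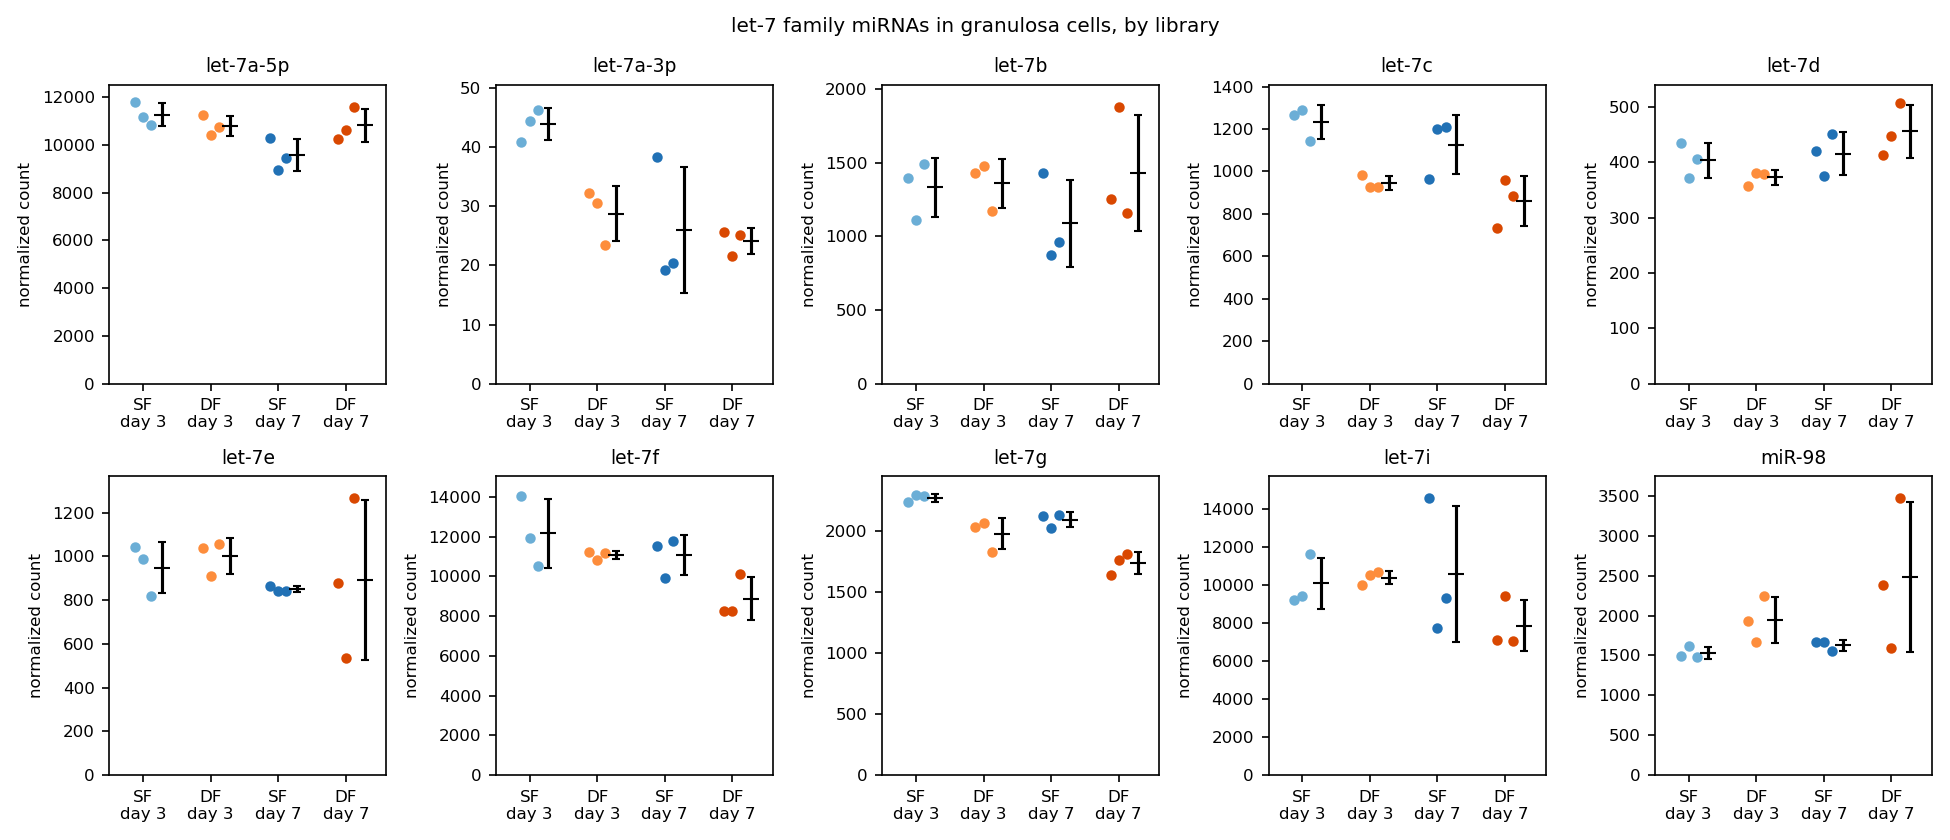
Normalized counts of the 10 members in each library, with 1 panel per member, 1 coloured point per library and the group mean ± SD in black (n = 3). Axes start at 0. Bta-let-7a-5p lies between 8953 and 11788 in all 12 libraries, while bta-miR-98 reaches 3471 in DF day 7 replicate 3 against 1477 in its lowest library.

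At day 3, SF and DF were compared for the time around follicle recruitment and selection. Of 335 miRNAs tested, 5.67% passed the thresholds and 16.7% had an FDR of at most 10% at any fold. Among the members, 0 of 10 passed the thresholds and 1 of 10, bta-miR-98, passed the FDR alone. Bta-miR-98 had normalized counts of 1491, 1618 and 1477 in SF and of 1932, 1669.6 and 2246 in DF. Every SF library was below every DF library, and the log2 fold change of SF over DF was -0.40 ± 0.14 (SE, 95% interval -0.68 to -0.12, edgeR FDR = 0.0649). This call did not hold in DESeq2 (FDR = 0.163), with all 12 libraries in one fit (FDR = 0.466), or without SF replicate 1, SF replicate 3 or DF replicate 3 (FDR = 0.126, 0.186 and 0.250).

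At day 3, bta-let-7c, bta-let-7g and bta-let-7a-3p were higher in every SF library than in every DF library, without passing the FDR. Bta-let-7c had 1268, 1291 and 1142 normalized counts in SF and 981, 926 and 925 in DF, with a log2 fold change of 0.34 ± 0.13 (SE, edgeR FDR = 0.102). Bta-let-7a-3p, the low-abundance opposite arm, had 41.0, 44.4 and 46.4 in SF and 32.3, 30.6 and 23.5 in DF, with a log2 fold change of 0.55 ± 0.25 (SE, edgeR FDR = 0.169). Its raw counts were only 24 to 50 reads at day 3, and its 95% interval reached 1.06. For bta-let-7g the libraries held 2240.2, 2295 and 2287 in SF and 2034, 2069 and 1834 in DF, and the log2 fold change was 0.16 ± 0.12 (SE, edgeR FDR = 0.481). With bta-miR-98, 4 of 10 members had groups that did not overlap, against 27.8% of the 335 miRNAs.

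The remaining members at day 3 were close between SF and DF, with log2 fold changes from -0.13 for bta-let-7e to 0.084 for bta-let-7f. For bta-let-7a-5p the value was 0.015 (95% interval -0.21 to 0.24), and with TMM normalization or library size alone it was -0.015 and -0.045. The 95% intervals of 9 of 10 members lay inside a log2 fold change of ±1. The median absolute log2 fold change was 0.11 over the members and 0.42 over all miRNAs tested. Of the members, 6 were higher and 4 lower in SF, and with TMM normalization or library size alone 5 and 5. Of the 12 marker miRNAs 11 were tested here and 0 passed the thresholds, although bta-miR-143, bta-miR-145 and bta-miR-202 passed the FDR alone, and their part in the let-7 values was not tested.

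At day 7, SF and DF were compared for the time of dominance. Here 33.4% of 350 miRNAs passed the thresholds and 39.7% passed the FDR at any fold, while 0 of 10 let-7 members passed either. Among the 110 abundant miRNAs, 50% passed the thresholds and 65.5% the FDR alone. The median absolute log2 fold change was 0.34 over the members and 1.14 over all miRNAs tested. Of the members, 6 were higher and 4 lower in SF, and with TMM normalization, library size alone, a filter of at least 10 reads or all 12 libraries in one fit 5 and 5. With all entries as listed, 8 were higher and 2 lower.

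Of the 10 members, 2 had groups that did not overlap at day 7, against 45.7% of all miRNAs tested. Bta-let-7c had 964, 1202 and 1210.4 normalized counts in SF and 732, 961 and 886 in DF. Its lowest SF library was barely above its highest DF library, and the log2 fold change was 0.46 ± 0.22 (SE, 95% interval -0.028 to 0.95, edgeR FDR = 0.139). Bta-let-7g had 2128, 2026 and 2134 in SF and 1639, 1761.5 and 1812 in DF, with a log2 fold change of 0.34 ± 0.18 (SE, edgeR FDR = 0.185). Both members thus had the same order of SF above DF in the libraries of both days.

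The largest fold changes at day 7 belonged to bta-miR-98 and bta-let-7i, and both moved with single libraries. Bta-miR-98 had 1673, 1663 and 1550.5 normalized counts in SF and 2386, 1595 and 3471 in DF. DF replicate 2 fell within the SF range, and the log2 fold change was -0.52 ± 0.26 (SE, 95% interval -1.11 to 0.066, edgeR FDR = 0.163). Without that library, which was the shallowest and had the highest leukocyte sum, it was -0.76 (edgeR FDR = 0.0359), and without DF replicate 3, which had the highest count, it was -0.23 (edgeR FDR = 0.450). Bta-let-7i had 14585, 7744 and 9341 in SF and 7109, 9396 and 7063 in DF, so that SF replicate 1 stood far above the rest and the other libraries mixed. Its log2 fold change was 0.49 ± 0.26 (SE, 95% interval -0.098 to 1.08, edgeR FDR = 0.185), and without SF replicate 1 it was 0.20 (edgeR FDR = 0.496).

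For bta-let-7f, a log2 fold change of 0.39 ± 0.18 (SE, edgeR FDR = 0.122) went with 11539.5, 9918 and 11770.2 normalized counts in SF and 8255, 8242 and 10118 in DF at day 7. SF replicate 2 and DF replicate 3 overlapped. Bta-let-7a-5p, bta-let-7d and bta-let-7e had log2 fold changes of -0.10, -0.061 and 0.015, and bta-let-7e was at -0.13 with library size alone. Bta-let-7b was at -0.33 ± 0.28 (SE), with -0.069 without DF replicate 2 and -0.56 without SF replicate 1. Bta-let-7a-3p was at 0.18 ± 0.37 (SE). The intervals of 7 of 10 members lay inside ±1, the exceptions being bta-let-7a-3p, bta-let-7i and bta-miR-98. Apart from the endothelial sum, which overlapped, the marker sums given above moved with this comparison. The part of the marker miRNAs in the let-7 values was not tested.

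**Figure D4:**
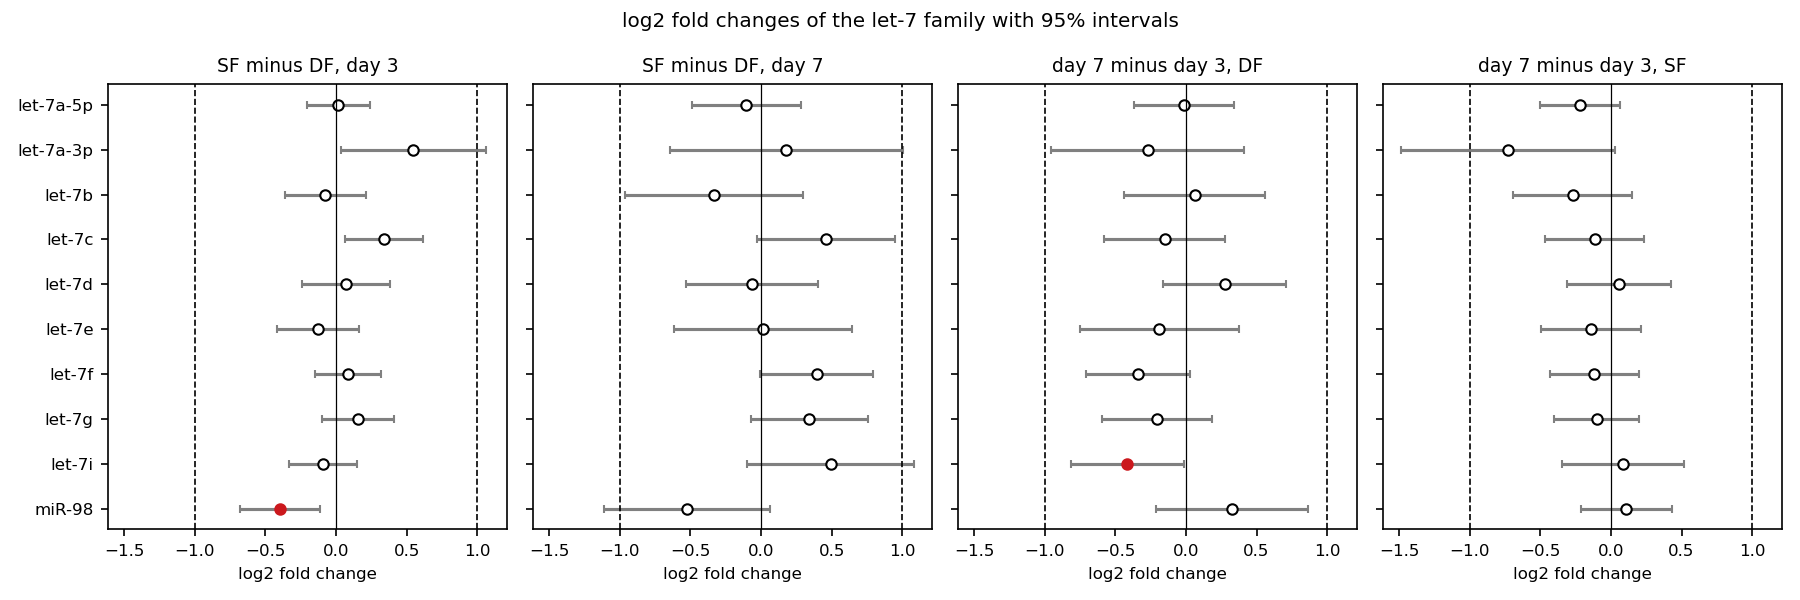
Log2 fold changes of the 10 members in the 4 comparisons, with 95% intervals as horizontal bars. Dashed lines mark a log2 fold change of -1 and 1, and red points an FDR of at most 10%. The red points are bta-miR-98 at day 3 (-0.40) and bta-let-7i between the days in DF (-0.42), and no point reaches a dashed line.

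The DF libraries of day 3 and day 7, which came from different heifers, were compared next. Of 360 miRNAs tested, 40.3% passed the thresholds and 47.2% passed the FDR at any fold. Among the members, 0 of 10 passed the thresholds and 1 of 10, bta-let-7i, passed the FDR alone. Bta-let-7i had 9985, 10516.9 and 10668 normalized counts in DF at day 3 and 7109, 9396 and 7063 at day 7. All day 7 libraries were below all day 3 libraries, and the log2 fold change was -0.42 ± 0.19 (SE, 95% interval -0.82 to -0.017, edgeR FDR = 0.0931). The call sat at the limit: DESeq2 gave an FDR of 0.101, the fit without a filter 0.107 and the fit with all 12 libraries 0.127. It was also lost without DF day 7 replicate 1 or replicate 3 and without each of the DF day 3 libraries (FDR from 0.1001 to 0.278), and the fold change ranged from -0.33 to -0.48 in these fits. Without DF day 7 replicate 2 the value was -0.58 (edgeR FDR = 0.00703).

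In DF, 3 other members had libraries that did not overlap between the days, which with bta-let-7i makes 4 of 10 against 50% of all miRNAs tested. Bta-let-7f had 11199, 10841.5 and 11194 normalized counts at day 3 and 8255, 8242 and 10118 at day 7, a log2 fold change of -0.34 ± 0.17 (SE, edgeR FDR = 0.129). Bta-let-7g had a log2 fold change of -0.21 ± 0.18 (SE, edgeR FDR = 0.381). Bta-let-7d went the other way, from 358, 381 and 379 to 413, 447 and 508, a log2 fold change of 0.27 ± 0.20 (SE, edgeR FDR = 0.302).

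Bta-miR-98 had a log2 fold change of 0.33 ± 0.25 (SE, edgeR FDR = 0.315) between the days in DF, with 0.56 (edgeR FDR = 0.0409) without DF day 7 replicate 2 and 0.019 (edgeR FDR = 0.944) without DF day 7 replicate 3. Bta-let-7a-5p was at -0.014 (95% interval -0.37 to 0.34), and at 0.0036 in the fit of all 12 libraries. Bta-let-7e was at -0.19, with 876.6, 535.6 and 1266.2 normalized counts in the DF day 7 libraries, a 2.36-fold range within 1 group. The 95% intervals of all 10 members lay inside ±1. The median absolute log2 fold change was 0.24 over the members and 1.25 over all miRNAs. Of the members, 3 were higher and 7 lower at day 7 (2 and 8 with library size alone, and 4 and 6 in the fit of all 12 libraries). Marker sums changed here as well, although the erythrocyte sum overlapped between the days. Of 12 marker miRNAs, 8 were differentially expressed, and the part of the marker miRNAs in the let-7 values was not tested.

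In SF between the days, 0.593% of 337 miRNAs passed the thresholds and 0.89% passed the FDR at any fold, while 0 of 10 let-7 members passed either. Bta-let-7a-3p had the largest value, a log2 fold change of -0.73 ± 0.35 (SE, 95% interval -1.49 to 0.030, edgeR FDR = 0.469). Its normalized counts were 41.0, 44.4 and 46.4 on day 3 against 38.3, 19.2 and 20.5 on day 7. SF day 7 replicate 1 was close to the day 3 libraries and the other two lay far below. Without that library the log2 fold change was -1.14 (edgeR FDR = 0.0518), past the thresholds, and bta-let-7b was at -0.53 (edgeR FDR = 0.039) in the same fit against -0.27 with all libraries.

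Bta-let-7a-5p and bta-let-7g were also lower in every SF library of day 7 than in every one of day 3, which makes 3 of 10 members without overlap against 13.9% of all miRNAs tested. Bta-let-7a-5p had 11788, 11173 and 10846.5 normalized counts at day 3 and 10275, 8953 and 9449.9 at day 7, a log2 fold change of -0.22 ± 0.13 (SE, edgeR FDR = 0.610). Bta-let-7g differed by -0.10 ± 0.14 (SE, edgeR FDR = 0.928). The median absolute log2 fold change was 0.12 over the members and 0.33 over all miRNAs. Of the members, 3 were higher and 7 lower at day 7, and with library size alone, which moved the median of all miRNAs by -0.14, 0 and 10.

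The difference between SF and DF was not shown to change from day 3 to day 7 for any member. In the interaction test over all 12 libraries 26.5% of 378 miRNAs passed the thresholds and 29.1% the FDR at any fold, and 0 of 10 members passed either. The values farthest from 0 were those of bta-let-7a-3p (-0.50 ± 0.43, SE) and bta-let-7i (0.47 ± 0.29, SE, edgeR FDR = 0.263). Bta-let-7c and bta-let-7e were at 0.0037 and 0.0046. The 95% intervals of 7 of 10 members lay inside ±1, and those of bta-let-7a-3p, bta-let-7b and bta-let-7i reached beyond it.

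Many let-7 hairpins lie beside other miRNA genes, and the following lay within 100 kb of each other in the RefSeq annotation of a later bovine assembly, with neighbours outside the lists used here left out. Let-7a-1, let-7f-1 and let-7d lie together. Let-7a-2 lies with miR-100 and a miR-125b gene, let-7c with miR-99a and the other miR-125b gene, and let-7e with miR-99b and miR-125a. Let-7a-3 lies beside let-7b. Let-7f-2 and miR-98 lie within the gene HUWE1, a ubiquitin ligase, and let-7g within WDR82.

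Several of these neighbours passed tests that the let-7 members beside them did not, which is not a test of their difference. At day 3, for example, bta-let-7c had a log2 fold change of 0.34 (edgeR FDR = 0.102). Its neighbours bta-miR-99a-5p and bta-miR-125b went the same way, at 0.62 and 0.55. Bta-let-7a-5p can come from several hairpins, so its level cannot be set against bta-miR-100 alone. Of the 6 neighbouring miRNAs listed (bta-miR-99a-5p, bta-miR-99a-3p, bta-miR-99b, bta-miR-100, bta-miR-125a and bta-miR-125b), 3 were higher in SF at day 3 by the FDR alone. At day 7, 3 were higher and 1 lower in SF by the FDR, with bta-miR-99a-5p (log2 fold change 1.27 ± 0.21, SE) and bta-miR-99b (1.09 ± 0.28, SE) past the thresholds. In DF between the days, 3 of 6 fell by the FDR, namely bta-miR-99b (-1.69 ± 0.23, SE), bta-miR-99a-5p (-1.004 ± 0.20, SE) and bta-miR-125a (-0.68 ± 0.22, SE), of which the first 2 passed the thresholds. In SF between the days bta-miR-100 alone passed the FDR (-0.94 ± 0.19, SE). Over all miRNAs tested, the shares passing the FDR were 16.7%, 39.7%, 47.2% and 0.89% in these comparisons, in the same order. At the thresholds they were 33.4% for SF against DF at day 7 and 40.3% in DF between the days, against 2 of 6 neighbours in each. The threshold counts thus do not set the neighbours apart from other miRNAs.

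Ratios of raw reads within a library do not depend on the scaling, and 10 such ratios were compared in the 4 comparisons with a two-sided exact permutation test. With 3 libraries against 3 the smallest p this test can give is 0.1, and the smallest Benjamini-Hochberg value over the 40 tests was 0.235. Many of the 40 tests reached that smallest p, so it does not set a single ratio apart. The ratios were chosen after the values had been seen. Bta-miR-99b had 25.6, 27.1 and 18.3 reads per read of bta-let-7e in DF at day 3, and 10.1, 9.11 and 6.74 in DF at day 7. This was a 2.74-fold lower ratio without overlap (exact permutation p = 0.1). At day 7 the SF libraries held 23.3, 14.2 and 14.8, which was 1.99-fold above DF (exact permutation p = 0.1).

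For bta-miR-125a over bta-let-7e the SF libraries at day 7 held ratios of 8.47, 8.42 and 10.3 and the DF libraries 4.65, 6.90 and 5.08, a 1.65-fold difference without overlap (exact permutation p = 0.1). Bta-miR-99a-5p over bta-let-7c was 2.24, 1.42 and 1.46 in SF and 1.24, 0.836 and 0.830 in DF, a 1.75-fold difference (exact permutation p = 0.1). The latter ratio was also higher in every SF than in every DF library at day 3, by 1.22-fold.

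Within the family, bta-miR-98 over bta-let-7f was 0.106, 0.136 and 0.140 in the SF libraries of day 3 against 0.173, 0.154 and 0.201 in DF. At day 7 it was 0.145, 0.168 and 0.132 in SF against 0.289, 0.194 and 0.343 in DF. SF lay below DF without overlap on both days, by 1.38-fold and 1.82-fold (exact permutation p = 0.1 for each). One let-7f hairpin shares its gene with miR-98, but bta-let-7f can come from either of its 2 hairpins. Bta-let-7f over bta-let-7a-5p was 0.806, 0.777 and 0.872 in DF at day 7 and 0.971 to 1.25 in the 9 other libraries. In SF at day 7 it was 1.42-fold above DF (exact permutation p = 0.1). Bta-let-7a-3p reads made up 0.204% to 0.428% of the bta-let-7a-5p reads.

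**Figure D5:**
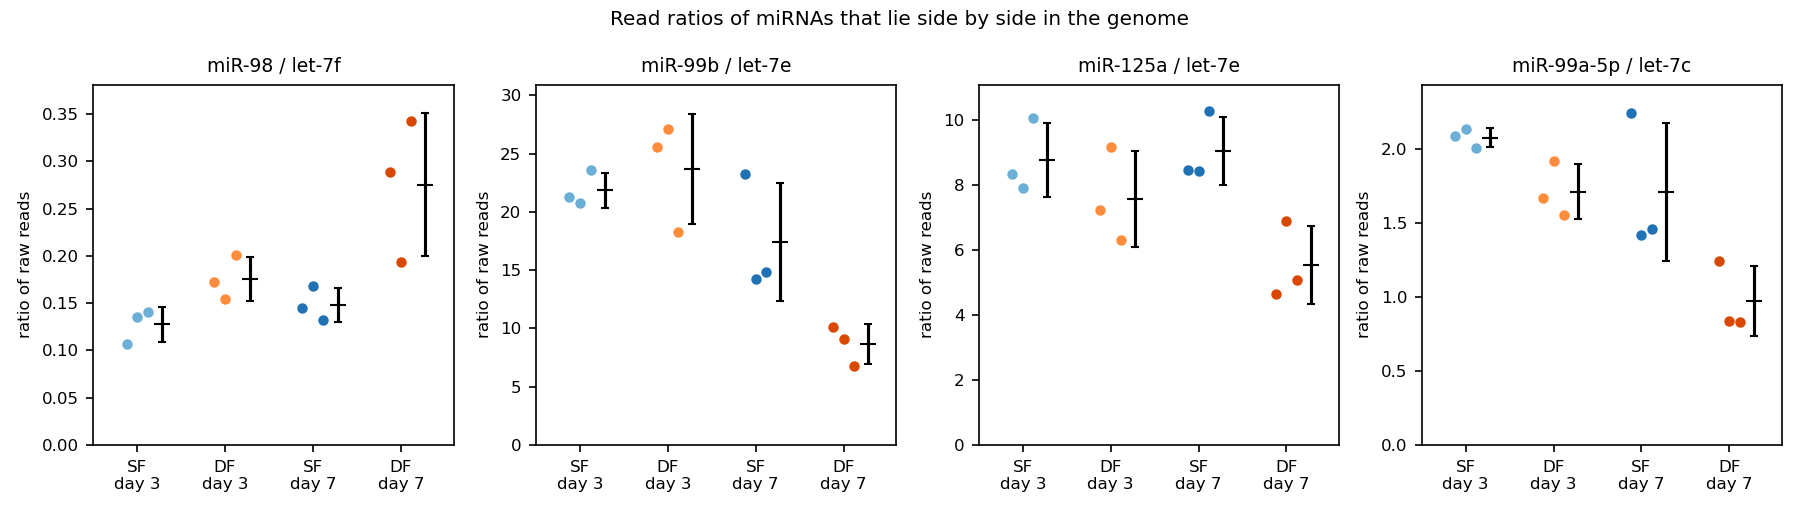
Ratios of raw reads of miRNAs that lie side by side in the genome, 1 point per library and the group mean ± SD in black (n = 3), with axes from 0. DF at day 7 has the highest group mean for bta-miR-98 over bta-let-7f (0.194 to 0.343), although DF day 3 replicate 3 (0.201) lies above its lowest library. For bta-miR-99b over bta-let-7e the DF day 7 libraries are the lowest (6.74 to 10.1).

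The entries of 1 mature name were compared where it had several hairpins. The 3 entries of bta-let-7a-5p differed by at most 33 reads, or 0.268%, in any library. Bta-let-7f was different: the entry of let-7f-2 exceeded that of let-7f-1 by 7.82%, 7.02% and 9.96% in DF at day 7 and by 10.9% to 15.2% in the 9 other libraries. The DF day 7 libraries were below SF at day 7 and below DF at day 3 without overlap (exact permutation p = 0.1 for each). Let-7 mature strands differ from one another at few positions, so a read with an error or a trimmed end can be counted under another member, and small differences between members carry that uncertainty.

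The miRNAs outside the family whose levels followed the family sum most closely were bta-miR-423-5p (Pearson r = 0.88), bta-miR-151-5p (r = 0.87) and bta-miR-2478 (r = 0.83). These values describe log2 normalized counts over 12 libraries among 123 miRNAs with a mean of at least 50 normalized counts, and the libraries share their scaling factors with both sides of each correlation. Between members, the correlations over the same libraries ran from -0.67, for bta-let-7g with bta-miR-98, to 0.83, for bta-let-7c with bta-let-7g. Bta-miR-98 was thus low where bta-let-7g and bta-let-7c were high, across libraries that also fall into the 4 groups.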

How the data were processed

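Small RNA libraries of bovine granulosa cells (SF and DF, day 3 and day 7, 3 replicates each, groups from the sample labels) were analysed from the deposited counts. The authors called bases with CASAVA 1.8.0, checked them with FastQC, trimmed with cutadapt, aligned to the bovine genome UMD 3.1, counted reads on miRBase miRNAs with miRDeep2 and deposited raw counts per mature miRNA and precursor. The handling of reads with several matches is not given in the sources used here.

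Each mature name was taken at its entry with the highest total. Counts of 6 libraries per comparison were tested with edgeR 4.0.16 (R 4.3.3, quasi-likelihood F test, two-sided, RLE factors, prior count 0.125, at least 1 read in at least 2 of 3 replicates of a group), and the interaction over all 12. The SE is the log2 fold change divided by the square root of F. Normalized counts are counts divided by size factors over all 12 libraries. The procedure was tested on simulated counts modelled on SF and DF at day 3, with changes larger than those of the let-7 members. The common dispersion was 0.030 in that comparison and 0.064 to 0.107 in the others, which the simulation did not cover.

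Named were all 10 members, 6 neighbouring miRNAs, 12 marker miRNAs of other cell types and the 3 miRNAs most correlated with the family sum. Members and lists were chosen with earlier results of these data known. Alternatives were DESeq2 1.42.0, TMM, library size alone, other filters, entry rules, FDR and prior count, one fit of all libraries, the replicate block and leaving out each library. Libraries with the same replicate number did not deviate together, with correlations from -0.12 to 0.14 over 185 miRNAs, and pairs were not assumed. These correlations see equal numbers only, so animals shared under other numbers would be missed. They also include comparisons between the days, where the heifers differed. Whether the SF and DF libraries of a day are independent was therefore not settled. Neighbouring genes come from RefSeq on the assembly ARS-UCD2.0, used only to find which genes lie within 100 kb of each other. Mature sequences were not used here.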

Additional observations from a re-analysis of the deposited data

How the results depend on the processing

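At the thresholds, 0 of 10 members were differentially expressed in the 4 comparisons and the interaction under every alternative, with 1 exception: between the days in SF, leaving out SF day 7 replicate 1 gave 1 (bta-let-7a-3p), so leave-one-out counts ran from 0 to 1. Counts at an FDR of at most 10% at any fold were less settled. For SF against DF at day 3 the count of 1 became 0 with DESeq2, with an FDR of at most 5% and with all 12 libraries in one fit, and 2 with the filter of 10 reads, all entries as listed and summed precursors. Leaving out libraries gave 0 to 1. For SF against DF at day 7 the count of 0 became 1 with library size alone (bta-miR-98), 2 with all entries as listed (bta-let-7f, bta-let-7i) and 2 with all 12 libraries (bta-let-7c, bta-miR-98). It ran from 0 to 2 over libraries left out, with 1 without SF day 7 replicate 1 (bta-let-7c), 2 without DF day 7 replicate 2 (bta-let-7c, bta-miR-98) and 1 without DF day 7 replicate 3 (bta-let-7f). Between the days in DF the count of 1 became 0 with DESeq2, without a filter, at an FDR of 5% and with the replicate block (bta-let-7i at -0.43, FDR = 0.101), and 2 with TMM, library size alone, the filter of 10 reads and all entries, each adding bta-let-7f. With all 12 libraries in one fit bta-let-7f took the place of bta-let-7i. With libraries left out it ran from 0 to 2, with 2 without DF day 7 replicate 2 (bta-let-7i, bta-miR-98), 2 without DF day 7 replicate 3 (bta-let-7e, bta-let-7f) and 0 without any other. Between the days in SF it ran from 0 to 2, the 2 without SF day 7 replicate 1 (bta-let-7a-3p, bta-let-7b), and for the interaction from 0 to 1, with bta-let-7i at 0.66 (FDR = 0.0904) without SF day 7 replicate 2. The replicate block changed no other call. The cause of these changes was not tested.

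Signs turned for the following values, none of which passed the FDR in the fit reported above. At day 3, bta-let-7a-5p was -0.015 with TMM and -0.045 with library size. At day 7, bta-let-7e was -0.055 with TMM, -0.13 with library size, -0.045 with the filter of 10 reads and -0.072 with all 12 libraries, and with all entries bta-let-7a-5p was 0.062 and bta-let-7d 0.099. In DF, bta-let-7b was -0.074 with library size and -0.078 with all entries, and bta-let-7a-5p 0.0032 with the filter and 0.0036 with all 12 libraries. In SF with library size, bta-let-7d was -0.092, bta-let-7i -0.044 and bta-miR-98 -0.033. The interaction of bta-let-7c was -0.0025 with the filter. Leaving out libraries gave, at day 3, -0.033 to 0.053 for bta-let-7a-5p and -0.035 to 0.18 for bta-let-7f, and at day 7 -0.20 to 0.34 for bta-let-7a-3p and -0.25 to 0.32 for bta-let-7e. In DF it gave -0.076 to 0.046 for bta-let-7a-5p, -0.20 to 0.19 for bta-let-7b and -0.51 to 0.071 for bta-let-7e, in SF -0.0057 to 0.091 for bta-let-7d and -0.24 to 0.23 for bta-let-7i. For the interaction it gave -0.080 to 0.13 for bta-let-7c, -0.22 to 0.34 for bta-let-7e and -0.46 to 0.054 for bta-miR-98. Library size alone moved the median of all miRNAs by -0.14 at day 7, -0.13 in DF and -0.14 in SF. Depth limits bta-let-7a-3p, with 13 to 50 reads a library. The shares depended on the entry rule. With counts summed over precursors, 37 group means of the family share and of the members' shares within it moved by the group's SD or more. Only 3 moved by less, so the shares given above hold for 1 entry per mature name.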
